A study of Rattus norvegicus with 4 samples.

Results

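The enzymes that write and erase histone methylation and acetylation were followed in the m6A peak lists of neonatal rat cardiac fibroblasts (CFs). The 56 genes were listed by symbol, by what their proteins do and not by a rule on measured values, and each gene was found through its NCBI rat gene ID. It held 24 histone methyltransferases with their core partners, 17 demethylases, 8 acetyltransferases and 7 deacetylases, so that 32 writers stood against 24 erasers. At least 1 m6A peak was listed for 49 of the 56 genes. Among the RefSeq protein-coding genes of the rat, 35.4% had a peak in either list, a share that also counts genes CFs may not express. In all, 8729 genes had a peak.

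CFs were primary cells of newborn Sprague-Dawley rats, collected no later than 3 days after birth, and were transfected for 48 h. The sources do not say how many pups a library came from. The Vector group received the empty plasmid and is labelled WT, and the FTO group received a plasmid with rat FTO cDNA and is labelled FTO overexpression. m6A-seq pulls down RNA fragments with an antibody against N6-methyladenosine (m6A) and sets them against input RNA. A peak is a piece of transcript enriched in the pull-down. There was 1 m6A-IP and 1 input library per group, from which the authors made 1 list of peaks per group with the length, transcript and gene of each peak.

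Methyl groups on histone tails are placed by enzymes that mostly carry a SET domain and removed by demethylases, most of which carry a JmjC domain and, like FTO itself, use iron and 2-oxoglutarate. Acetyl groups are placed on lysines by acetyltransferases, which open chromatin for transcription, and removed by deacetylases. In fibroblasts these enzymes are known to take part in the switch between the resting and the collagen-producing state. The mRNAs of many of them are long, and m6A is often found in long internal exons and near stop codons.

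The lists held 21249 Vector peaks and 17796 FTO peaks, which is 83.7 FTO peaks per 100 Vector peaks. Sequencing depth is unknown, since the lists give no read numbers, and a peak list without replicates allows no test between the groups. Fewer peaks can come with less methylation, with less transcript or with a shallower library, and these cannot be told apart here. The transfected gene Fto had 3 Vector peaks and 9 FTO peaks. Peaks show which transcripts were methylated and present, not their level. Of 10 fibroblast markers, 8 had a peak in either list, including Pdgfra, Tcf21 and Fbn1, while Vim and Dcn had none. Markers of other cells also had peaks: 5 of 6 cardiomyocyte genes, with 22 Vector and 24 FTO peaks in sum, 3 of 4 leukocyte genes, with 12 and 9, and 1 of 3 smooth muscle genes, Myh11, with 17 and 15. Ttn, Itgam, Cnn1 and Acta2 had none. Of 5 endothelial genes only Tek had peaks, 2 in the FTO list. The part of such cells in the values below was not tested.

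The 56 genes carried 238 Vector peaks and 207 FTO peaks, or 87.0 FTO peaks per 100 Vector peaks. Peaks were fewer in the FTO list for 23 of the 49 genes, as many for 14 and more for 12. Of all genes with a peak, 41.4% had fewer FTO peaks and 21.2% had more, so the enzymes differed little from the background in either direction. Genes with many peaks had fewer FTO peaks more often in general. With 5 or more Vector peaks, 16 of 24 enzymes had fewer FTO peaks beside 67.7% of all such genes, and with 10 or more it was 5 of 5 beside 81.4%. For 43 of the 49 genes the numbers were within 2 peaks of each other.

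**Figure D1:**
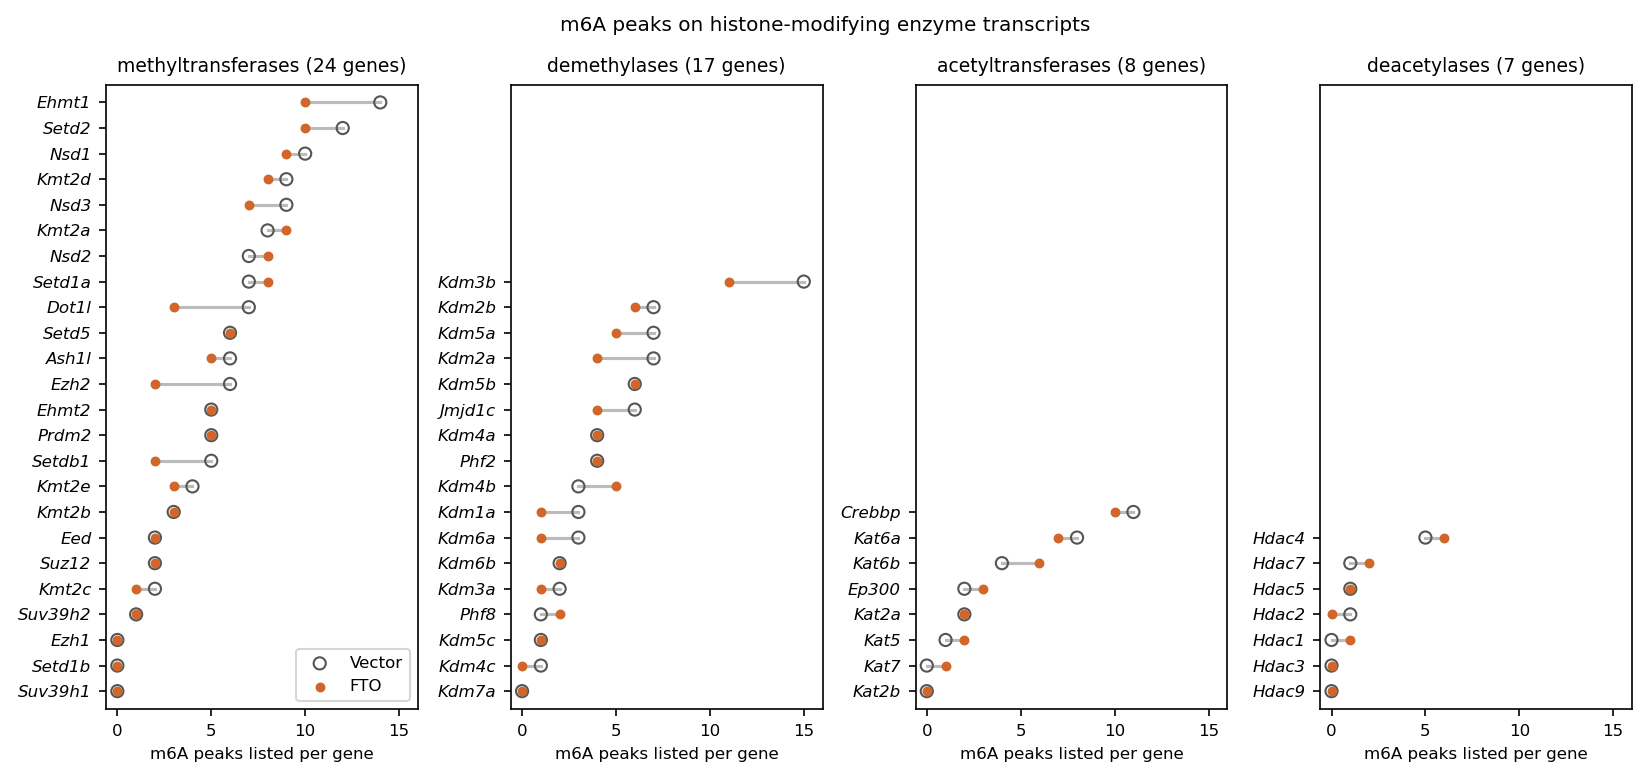
Number of m6A peaks listed per gene (x axis) for the 56 enzymes, with 1 panel per class; open circles are the Vector list, filled points the FTO list, and a grey line joins the values of a gene. The longest lines belong to Kdm3b (15 and 11), Ehmt1 (14 and 10), Dot1l (7 and 3) and Ezh2 (6 and 2), while most acetyltransferase and deacetylase points lie within 1 peak of each other.

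A difference of 3 or more peaks was found for 6 enzymes, and in each of them the FTO list held fewer. The background shares were 5.97% for 3 or more fewer and 1.39% for 3 or more additional FTO peaks over all genes with a peak. All 6 had at least 5 Vector peaks, and they made up 6 of 24 enzymes of that kind, beside 28.5% of all such genes. The count was thus near the background for genes with many peaks, and it is given as a description of which peaks were listed. It depended on short peaks. With peaks of at least 200 bp, FTO minus Vector was 0 for Ezh2, -1 for Dot1l and Ehmt1, and -2 for Setdb1, Kdm2a and Kdm3b. After FTO counts were scaled by 1.19 for the list sizes, it was -3.61 for Ezh2 and -3.42 for Dot1l. For the others it then lay between -2.61 and -1.87.

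Ezh2 (NCBI gene 312299), the main catalytic subunit of Polycomb repressive complex 2 (PRC2), which methylates histone H3 at silenced genes, had 6 Vector peaks of 241, 92, 164, 141, 121 and 129 bp in the order of their names. In the FTO list only the first peaks of that order were listed, with the same 241 and 92 bp. Its 4 other peaks had no counterpart of any length. The PRC2 core subunits Suz12 and Eed showed no such difference. Suz12 had peaks of 158 and 199 bp, and Eed had peaks of 153 and 537 bp, each in both lists. Ezh1, the second catalytic subunit, had no peak in either.

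Dot1l (NCBI gene 362831), the methyltransferase that acts on the globular part of histone H3 in transcribed genes and lacks a SET domain, had 7 Vector peaks of 951, 578, 485, 107, 80, 95 and 229 bp. The FTO list kept 951, 578 and 485 bp. As in Ezh2, the absent peaks were the last ones of the order, and in Dot1l they were also the shorter ones.

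Setdb1 (NCBI gene 689883) makes the trimethyl mark that silences transposable elements. It had 5 Vector peaks of 629, 117, 669, 269 and 253 bp and 2 FTO peaks, again of 629 and 669 bp. Ehmt1 (NCBI gene 362078), which forms a dimer with Ehmt2 and methylates the same lysine at silent euchromatic genes, had 14 Vector peaks and 10 FTO peaks. Of these, 8 had equal lengths in both lists, from 45 to 557 bp. The Vector peaks without a match of either kind were 116, 227, 146 and 78 bp long, and its longest peaks, 1293 and 1202 bp, stood at the same places in the FTO list with 1342 and 1290 bp.

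Among the demethylases, Kdm3b and Kdm2a differed most. Kdm3b (NCBI gene 682469), which removes methyl groups of a silencing mark on histone H3, had the most peaks of all 56 genes, 15 with Vector and 11 with FTO, of which 10 had equal lengths. Its Vector peaks without a partner were 200, 108, 280, 140 and 177 bp long, and the FTO list held 1 peak of 172 bp without a partner. Kdm2a (NCBI gene 361700), which binds CpG islands, had 7 Vector peaks of 3092, 216, 710, 90, 270, 395 and 334 bp, and its 4 FTO peaks kept 3092, 710, 270 and 395 bp. Over the 6 enzymes, 29 of 32 FTO peaks had a Vector peak of equal length. Of the FTO peaks of all 56 enzymes 79.2% had one, and of those of all genes 68.4%. The 6 were picked for having fewer FTO peaks, so their count is not independent of that choice and is a description.

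**Figure D2:**
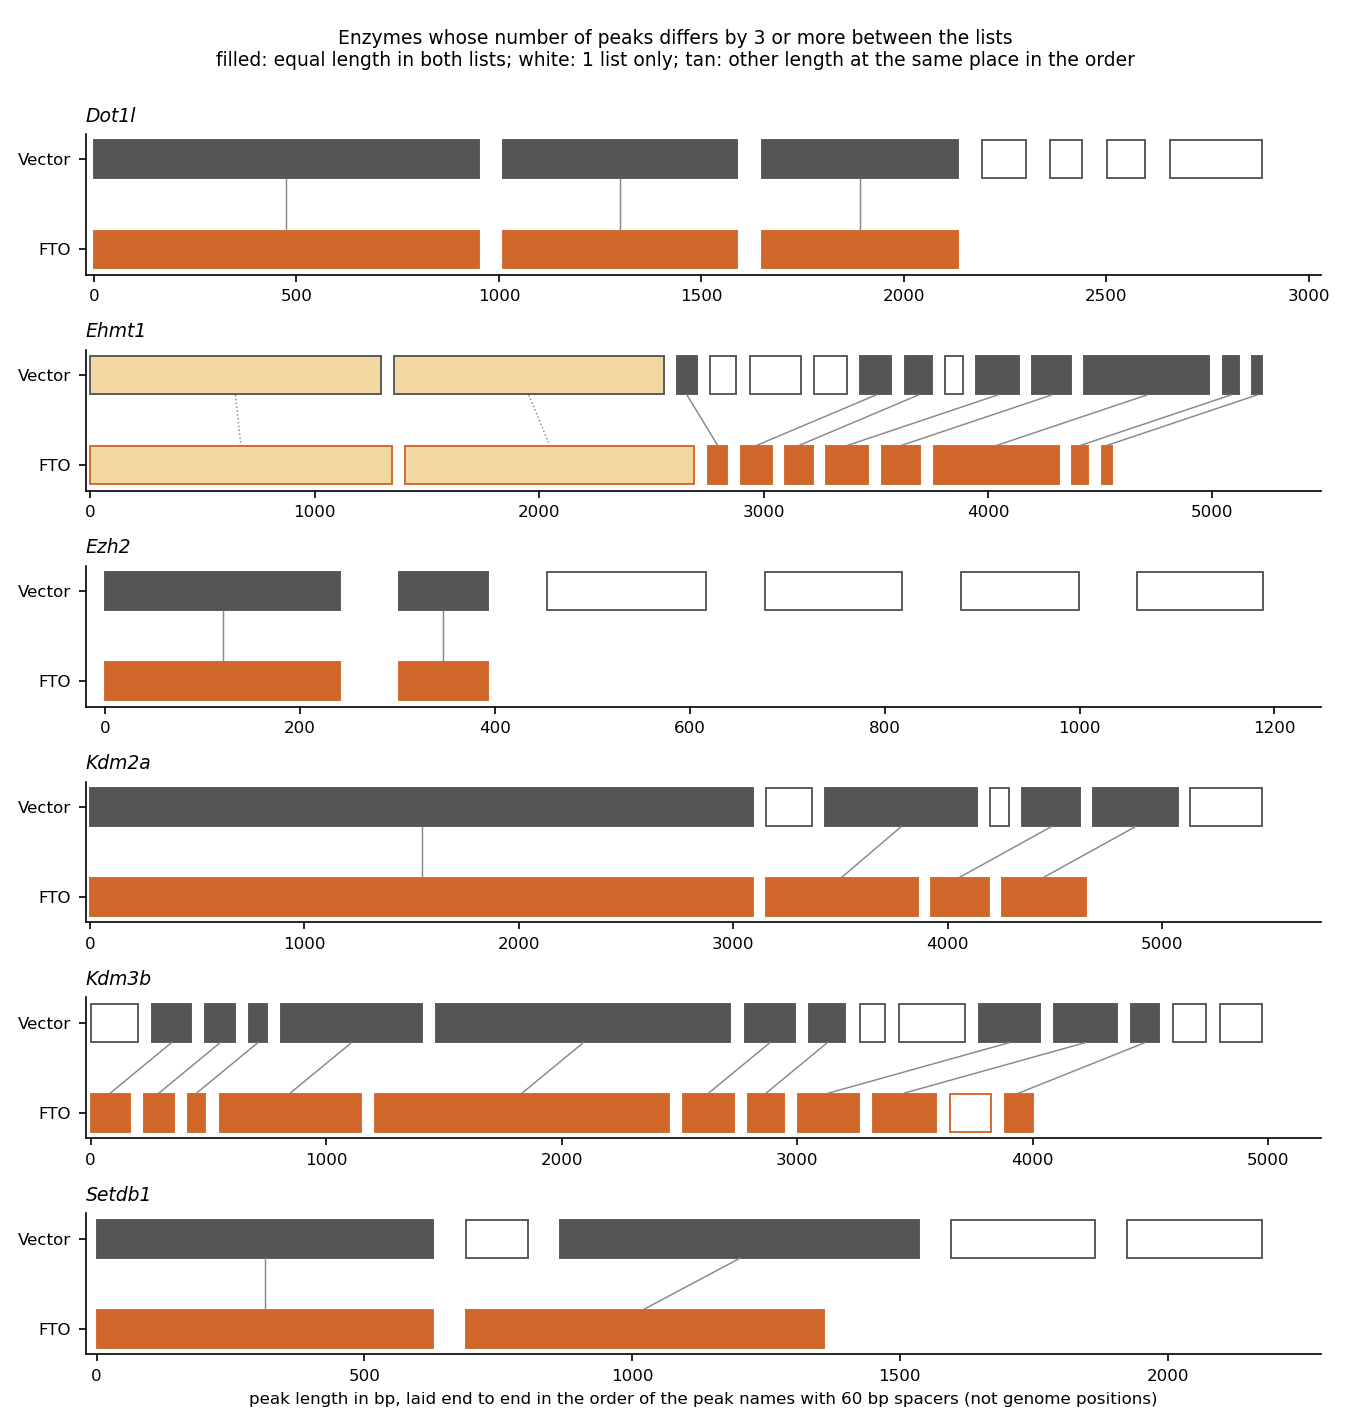
Peaks of the 6 enzymes that differ by 3 or more peaks, drawn as bars whose width is the peak length in bp, laid end to end in the order of the peak names with a fixed spacer (not genome positions), Vector above FTO. Filled bars joined by lines have equal lengths in both lists, white bars are in 1 list only, and tan bars with dotted lines have another length at the same place; the 4 white bars of Ezh2 and of Dot1l stand together at the end of the order.

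The Kmt2 (MLL) and Setd1 enzymes methylate histone H3 at promoters and enhancers within COMPASS complexes. Kmt2a had 8 Vector and 9 FTO peaks, with 6 in common, among them peaks of 4240 and 2651 bp. Kmt2b had the same 3 peaks in both lists, 1294, 2015 and 333 bp. Kmt2d, the enhancer enzyme with the longest summed peak length in the Vector list (8953 bp), had 9 and 8 peaks, and the FTO list lacked only the peak of 695 bp. Kmt2c, its close relative, had 2 short peaks of 199 and 117 bp in the Vector list and the former alone in the FTO list. Setd1a had 7 and 8 peaks, while Setd1b had none in either list. Kmt2e, a SET protein without established methyltransferase activity, had 4 and 3 peaks, and only the peak of 564 bp was common.

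The enzymes of the mark on transcribed gene bodies had many peaks. Setd2, which completes its trimethyl form, had 12 Vector and 10 FTO peaks. Its long first peak of 4283 bp was in both lists, and its last measured 812 bp and 806 bp. Nsd1 had 10 and 9 peaks, Nsd2 had 7 and 8, and Nsd3 had 9 and 7. Ash1l had 6 and 5 peaks, among them the longest common peak of the whole set at 4558 bp. The Nsd paralogs also shared lengths among themselves: a peak of 117 bp was listed for all 3 genes, and peaks of 205 bp and 270 bp for Nsd1 and Nsd2. Of all Vector peaks, 0.494% were 117 bp long, 0.268% were 205 bp and 0.136% were 270 bp. In the 13 other groups of related enzymes that were compared, the only length found in more than 1 gene was 153 bp, in Kdm3b and Jmjd1c (0.409% of all Vector peaks). These lengths are a description, and without positions it was not tested whether they belong to matching exons.

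The remaining methyltransferases had as many peaks in both lists. Ehmt2 had 5 peaks in each list, with 3 equal lengths, and its first and last peaks measured 290 and 370 bp with Vector and 257 and 412 bp with FTO. Setd5 had 6 in each, and Prdm2 had 5 in each with a common peak of 4381 bp and an FTO peak of 850 bp that the Vector list lacked. Suv39h2, which maintains silencing around centromeres, had 1 peak of 672 bp in both lists, while Suv39h1 had none.

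Demethylases of the Kdm5 and Kdm6 families differed among their members. Kdm5a, which removes the promoter mark of active genes, had 7 Vector peaks and 5 FTO peaks of lengths found in both lists. Its Vector peaks of 573 and 92 bp were the only ones assigned to the transcript ENSRNOT00000056198, and the FTO list had no peak on that transcript. Kdm5b had 6 peaks in each list, its last one 1339 bp long with Vector and 1586 bp with FTO. Kdm5c had the same peak of 1157 bp in both. Kdm6a, the X-linked demethylase of the Polycomb mark, had Vector peaks of 779, 396 and 583 bp and an FTO peak of 779 bp, so its summed length was 1758 bp and 779 bp. Kdm6b, which removes the same mark, had identical peaks of 206 and 2165 bp.

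Kdm4b and Phf8 were the demethylases with more FTO peaks. The Vector peaks of Kdm4b, 188, 197 and 138 bp long, were all in the FTO list, which added peaks of 1751 and 175 bp. The peak of 1751 bp lay on a transcript, ENSRNOT00000089374, that had no Vector peak, and with it the summed length was 523 bp with Vector and 2449 bp with FTO. Kdm4a had 4 peaks in each list, the first 1071 bp with Vector and 1395 bp with FTO. Kdm4c had 1 peak of 120 bp in the Vector list alone. Kdm1a (LSD1), a flavin-dependent demethylase without a JmjC domain, had peaks of 489, 24 and 180 bp with Vector and of 489 bp with FTO. Kdm3a had 512 and 216 bp against 216 bp, and Jmjd1c had 6 and 4 peaks, with its long peaks of 2171 and 1676 bp in both. Kdm2b had 7 and 6 peaks, Phf2 had 4 and 4, and Phf8 had 1 and 2 with no common length. Kdm7a had no peak.

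Acetyltransferases and deacetylases were counted together. Of the 12 acetylation enzymes with a peak, 3 had fewer FTO peaks, 2 as many and 7 more, with 36 Vector and 41 FTO peaks in all. Of the 37 methylation enzymes with a peak, 20 had fewer, 12 as many and 5 more, with 202 and 166 peaks. The shares over all genes with a peak were 41.4% fewer and 21.2% more. Both counts rest on 1 pair of lists, and each of the 7 acetylation enzymes with more FTO peaks had 1 or 2 additional peaks. These additions depended in part on short peaks. When peaks shorter than 200 bp were left out, FTO minus Vector fell to 0 for Ep300, Kat7, Hdac1 and Hdac7. It was then 1 for Kat5, Kat6b and Hdac4, and stayed at -1 for Crebbp, Kat6a and Hdac2. The acetylation enzymes also carried fewer Vector peaks per gene (36 over 12 genes against 202 over 37), and the counts were not matched for this. The division into acetylation and methylation enzymes was made after the values were seen, and no test was run on it.

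Crebbp and Ep300, the paralogous coactivators that acetylate histone H3 at enhancers, differed from each other. Ep300 had Vector peaks of 293 and 638 bp, both kept, and 1 more FTO peak of 175 bp. Crebbp had 11 Vector and 10 FTO peaks with 7 equal lengths, and its last peak was 2288 bp long with Vector and 4905 bp with FTO. It was the longest peak of any of the enzymes, and the summed length of Crebbp was 5011 bp and 7387 bp although it had 1 peak fewer with FTO. Kat6a (MOZ), the catalytic subunit of its complex, had 8 and 7 peaks, and the FTO list lacked only that of 232 bp. Its paralog Kat6b kept all 4 Vector peaks and had FTO peaks of 383 and 109 bp in addition. Kat2a had 2 peaks in each list without a common length, 657 and 209 bp with Vector and 700 and 378 bp with FTO. Kat5 (TIP60) had a peak of 535 bp in both lists and one of 249 bp with FTO. Kat7 had a single FTO peak of 90 bp, and Kat2b had none.

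Among the deacetylases, most peaks belonged to Hdac4, a class IIa enzyme that shuttles between nucleus and cytoplasm and restrains MEF2. All 5 of its Vector peaks (508, 224, 199, 151 and 242 bp) were in the FTO list, together with one of 255 bp. Hdac5 had 1 peak of 279 bp in both lists, and Hdac7 had 191 bp in both and 197 bp with FTO alone. The class I enzymes, the catalytic subunits of the nuclear corepressor complexes, had next to no peaks. Hdac1 had 1 FTO peak of 67 bp, Hdac2 had 1 Vector peak of 252 bp, and Hdac3 had none, like Hdac9 of class IIa. Peaks in the Vector list alone were thus found for 2 of the 49 enzymes (Kdm4c and Hdac2) and in the FTO list alone for 2 (Kat7 and Hdac1), beside 16.4% and 9.57% of all genes with a peak. Each of these 4 genes had a single peak of 252 bp or less. Genes with any Vector peak had a median of 2 over all genes and 5 among the enzymes, and the shares were not matched for this. No peak in either list was found for 7 enzymes: Setd1b, Suv39h1, Ezh1, Kdm7a, Kat2b, Hdac3 and Hdac9.

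Writers were then compared with erasers. The 32 writers had 158 Vector and 140 FTO peaks, or 88.6 FTO peaks per 100, and the 24 erasers had 80 and 67, or 83.8 per 100, beside 83.7 over all genes. Peaks were fewer for 13, as many for 8 and more for 7 of the 28 writers with a peak, and fewer for 10, as many for 6 and more for 5 of the 21 erasers. In percent, 46.4% of the writers and 47.6% of the erasers had fewer FTO peaks. Writers carried more peaks per gene, with a median of 6 Vector peaks against 3 in genes with any, but these numbers are not corrected for transcript length and set no order of methylation.

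Peaks were also matched 1 to 1 when gene and length were equal. Of the Vector peaks, 164 of 238 (68.9%, 95% Wilson interval 62.8% to 74.4%) had an FTO partner, beside 57.3% over all genes. Intervals here cover counting error only. Among genes with 5 or more Vector peaks, the share was 69.1% (62.2% to 75.3%) for the enzymes and 65.2% for all genes, so the distance was smaller between genes with like numbers of peaks. Of the FTO peaks, 79.2% (73.2% to 84.2%) had a Vector partner, beside 68.4%. The share of Vector peaks with a partner was 70.3% (62.7% to 76.8%) for writers and 66.3% (55.4% to 75.7%) for erasers, and the intervals overlapped widely. It was 69.2% for methyltransferases, 63.9% for demethylases and 87.5% for deacetylases, the last from 8 peaks, and in acetyltransferases it was 21 of 28 peaks.

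**Figure D3:**
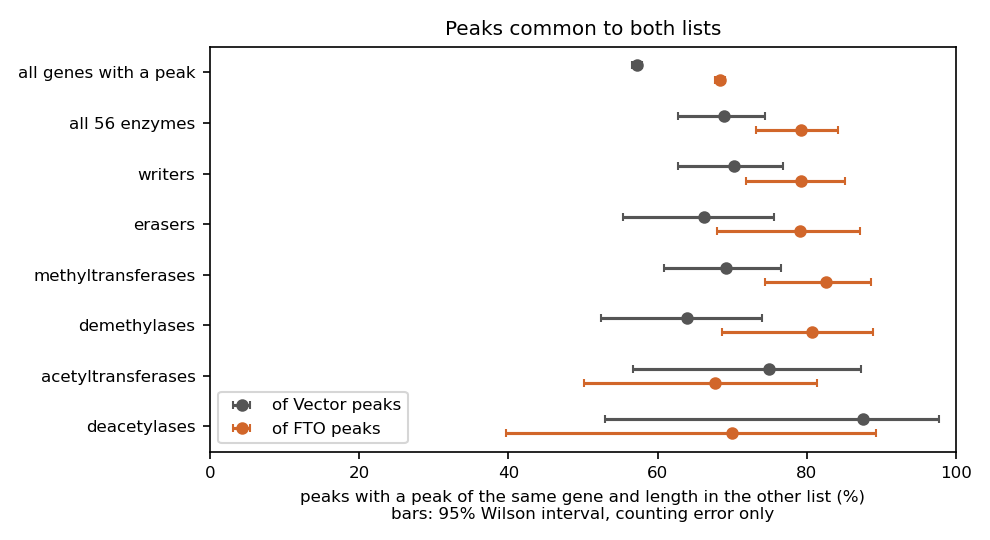
Share of peaks in percent (x axis) that had a peak of the same gene and length in the other list, for all genes with a peak, all 56 enzymes, writers, erasers and the 4 classes; grey points are shares of Vector peaks, orange points shares of FTO peaks, and bars are 95% Wilson intervals for counting error only. Writers (70.3%) and erasers (66.3%) overlap, and the shares of FTO peaks lie above those of Vector peaks except in acetyltransferases and deacetylases.

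Peak sets were then sorted by how they differed, for the 45 enzymes with peaks in both lists. All lengths were identical in 7 enzymes (Kmt2b, Suv39h2, Suz12, Eed, Kdm5c, Kdm6b and Hdac5), beside 28.4% of all genes in both lists. The FTO list lacked some Vector peaks and added none in 12 (20.1% of all genes), namely Kmt2c, Kmt2d, Setdb1, Ash1l, Dot1l, Ezh2, Kdm1a, Kdm2a, Kdm3a, Kdm5a, Kdm6a and Kat6a. It added peaks and lacked none in 6 (9.61%), namely Kdm4b, Ep300, Kat5, Kat6b, Hdac4 and Hdac7. Peaks without a partner stood on both sides in the other 20 (41.9%). These shares of all genes were not limited to genes with like numbers of peaks. Pure absence was found in 6 of 21 methyltransferases, 5 of 15 demethylases, 1 of 6 acetyltransferases and 0 of 3 deacetylases. Pure addition was found in 0, 1, 3 and 2 of them.

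Lengths were compared next. The median length was 230.5 bp with Vector and 257 bp with FTO, beside 203 bp and 228 bp over all genes. Writers had medians of 230.5 and 273.5 bp and erasers of 233.5 and 242 bp. The summed length of all the enzymes' peaks was 127267 bp with Vector and 127257 bp with FTO, although the FTO list held 31 fewer peaks. For writers it was 91525 and 93259 bp, and for erasers 35742 and 33998 bp. These sums depended on single genes: without Crebbp, the FTO sum minus the Vector sum was -642 bp for writers instead of 1734 bp, and -2386 bp for all the enzymes instead of -10 bp. Without Kdm4b it was -3670 bp for erasers instead of -1744 bp. Over all genes the FTO sum was 93.2% of the Vector sum. Summed length was lower with FTO for 21 enzymes, equal for 7 and higher for 21, while 47.2% of all genes with a peak had a lower sum and 31.8% a higher one. All 12 enzymes with more peaks also had a higher sum, as had 6 of the 14 with as many. Of the 23 with fewer peaks, 20 had a lower sum, and the exceptions were Crebbp, Nsd3 and Kmt2e.

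**Figure D4:**
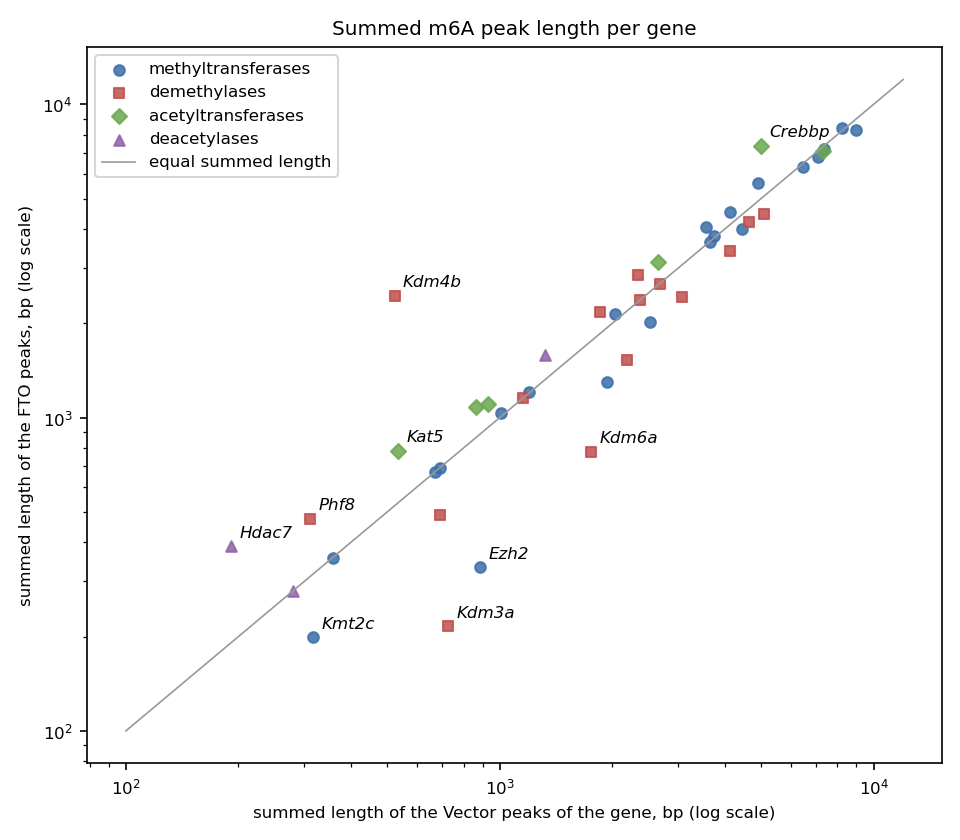
Summed length of the Vector peaks (x axis) against that of the FTO peaks (y axis) in bp, both on log scales, for the 45 enzymes with peaks in both lists, marked by class; the line is equality. Kdm4b (523 and 2449 bp) and Crebbp (5011 and 7387 bp) lie above the line, and Ezh2 (888 and 333 bp), Kdm3a (728 and 216 bp) and Kdm6a (1758 and 779 bp) below it.

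Long peaks, of 1000 bp or more, numbered 33 in each list and fell on 23 genes in each. They made up 13.9% of the enzymes' Vector peaks and 15.9% of their FTO peaks, beside 14.2% and 16.7% over all genes. Of the 33 long Vector peaks, 26 had an FTO peak of exactly the same length (78.8%, 95% Wilson interval 62.2% to 89.3%), beside 52.6% of all long Vector peaks. The unmatched ones were found in Setd5, Ehmt1, Kdm2b, Kdm4a, Kdm5b and Crebbp. The share for all long Vector peaks also covers genes with few peaks, and no share for genes with many peaks was computed. Vector peaks without a partner were shorter than common peaks, with medians of 177 and 257.5 bp, and 52.7% against 39.0% of them were under 200 bp. Over all genes these shares were 52.0% and 47.0%.

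The peak names are numbered, and of 119 neighbouring pairs of common peaks in the enzymes 0 stood in reversed order in the other list (6 of 6564 over all genes). The order was therefore used to find peaks of unequal length at the same place, which gave 12 pairs in 10 enzymes. The FTO peak was the longer one in 8 of the 12. No such count was made over all genes. There, peaks without a partner of equal length had medians of 191 bp with Vector and 294 bp with FTO. The differences, FTO minus Vector, ran from -166 bp in Kdm2b to 2617 bp in Crebbp, with 380 bp in Nsd3, 324 bp in Kdm4a, 247 bp in Kdm5b and 147 bp in Setd5. Of the 12 pairs, 10 stood first or last in the order of their gene, where the place is set by a common peak on 1 side only. The pair of 1202 and 1290 bp in Ehmt1, next to its first pair, also had a common peak on 1 side only. In Ehmt2 the peaks of 290 and 257 bp were assigned to different transcripts.

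Peaks of some enzymes were assigned to more than 1 transcript, in 10 of 47 enzymes with Vector peaks and 6 of 47 with FTO peaks, beside 10.6% and 9.81% of all genes. Here too the background was not limited to genes with like numbers of peaks. In Kmt2e, Setdb1, Ehmt2, Kdm3a and Kdm5a the second transcript had Vector peaks and no FTO peak. Kdm4b was the reverse. In Setdb1 the peak on the second transcript was that of 253 bp, and in Kdm3a it was that of 512 bp.

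The proteins that work beside these enzymes were taken from a list of other chromatin genes, of which 114 had a single RefSeq match. In the COMPASS subunits, 5 of 9 genes with a peak had fewer FTO peaks and 0 had more, with 28 Vector and 20 FTO peaks, beside 41.4% fewer and 21.2% more over all genes with a peak. Rbbp5, a core subunit, had 5 Vector and 2 FTO peaks. Of the 3 further PRC2 genes with a peak, Jarid2 had 5 and 3 and Rbbp7 had 2 and 1, while Mtf2 had 1 and 4. In the corepressor complexes that carry the class I deacetylases, 4 of 13 genes had fewer peaks and 3 had more, with 99 and 96 peaks. Ncor1, a scaffold of such a complex, had 23 Vector and 19 FTO peaks. In the subunits of acetyltransferase complexes, 8 of 15 had fewer and 0 had more, with 72 and 59 peaks, and Epc1 had 5 and 2. The same background of 41.4% and 21.2% holds for the corepressors and these subunits, and with so few genes the counts are descriptions. Peaks were thus numerous on the corepressors and few on the deacetylases they carry.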

How the data were processed

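m6A-seq of CFs gave 4 libraries in 2 groups, an m6A-IP and an input library each for Vector and FTO. The authors deposited 1 peak list per group with another kind of value than an expression unit, the peak length in bp, which is not normalized. The submitters' processing notes name cutadapt 1.9.3, HISAT2 2.0.4 and the build rn6. The peak names carry the prefix MACS, and caller version, threshold and annotation release are not given in the sources used here. Positions and heights were not used, so no sequence is shown. Peaks were assigned by NCBI gene ID, and all 56 symbols matched the RefSeq table of GRCr8, used for names only. Peaks without a gene ID (248 and 213) were not assigned to a named gene.

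Peaks were counted per gene and matched 1 to 1 by equal length within a gene. With 1 library pair per group no test was run. The matching was tested on simulated data. Peaks added there were longer than any real peak, so the test cannot show how often different peaks of a gene share a length. The enzymes and lists were chosen with earlier results of these data known. Named by rule, with their peak numbers, were enzymes with 10 or more peaks, a difference of 3 or more, peaks in 1 list only or none. The single peak lengths were not given in full for all of them. Other enzymes described, and the genes of the wider list beyond the 3 that differed most each way, were chosen after their values were seen. Of 116 genes in that list, 2 had no single match, and some genes are not reported here by name. Python 3.11.15, numpy 2.4.6, pandas 2.3.3, scipy 1.17.1 and matplotlib 3.10.9 were used.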

Additional observations from a re-analysis of the deposited data

How the results depend on the processing

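Of 49 recomputed summary values, 32 stayed within 1.5 times the count or within the 95% interval. Keeping peaks of at least 200 bp left 135 Vector and 124 FTO peaks, with medians of 508 and 536 bp, and Kmt2a then had 1 peak fewer with FTO (-1) and Nsd3 had 1 more. Of the 23 enzymes with fewer FTO peaks, 15 still had fewer under that limit and 22 with peaks of at least 100 bp. After the FTO counts were scaled by 1.19 (Vector peaks over FTO peaks), 18 of those 23 still had lower numbers and 5 had higher ones, and with a tolerance of 1 peak 12 enzymes had fewer, 23 as many and 14 more. By summed length 7 were equal and 21 higher. With 5 or more Vector peaks, 4 had as many and 4 more. Accepting any peak of the same gene gave partners to 83.5% of the writers' and 76.3% of the erasers' Vector peaks. The median summed length per gene was 2028 bp and 2149 bp. Without the gene that differed most, the FTO minus Vector sum was -642 bp for writers, opposite in sign, and -2386 bp for all enzymes (Crebbp left out), and -3670 bp for erasers (Kdm4b left out). The cause was not tested. Matching by place in the order, the limit to genes with 5 or more peaks, leaving out Kdm3b from the counts and leaving out genes from the sums were chosen after the data were seen. Leaving out a replicate was not possible. No paired analysis was possible because 1 peak list stood for a whole group, made from 1 m6A-IP and 1 input library. The unknown depth limits every comparison of numbers.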

Other observations

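Other chromatin genes were read from the same lists. Of 20 readers of histone marks, 18 had a peak, 8 had fewer FTO peaks, 9 as many and 1 more, with 83 Vector and 69 FTO peaks. Over all genes with a peak, 41.4% had fewer FTO peaks and 21.2% had more. L3mbtl3, an MBT-domain protein, had 6 and 2 peaks, and Phf20l1 had 3 and 0. Bptf, the largest subunit of the NURF remodelling complex, had 14 and 12. In the DNA methylation genes there were 28 and 24 peaks. Tet1, which oxidises methylcytosine, had 4 Vector peaks and 1 FTO peak without a common length, whereas Dnmt3a kept all 6 Vector peaks and had 7 with FTO. Uhrf1 and Dnmt3b had none.

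Of 36 further histone-modifying enzymes, 23 had a peak, with 63 Vector and 57 FTO peaks. Peaks were fewer with FTO for 9, as many for 8 and more for 6, beside 41.4% fewer and 21.2% more over all genes. Kmt5a had the same 5 peaks in both lists. The receptor coactivators Ncoa1, Ncoa2 and Ncoa3 had 9 and 7, 8 and 9, and 4 and 2 peaks. Over the whole list of 114 genes, 39 of 86 with a peak had fewer FTO peaks and 12 had more, beside the same shares of 41.4% and 21.2%. Of the list's Vector peaks, 70.3% had an FTO partner of equal length (95% Wilson interval 65.6% to 74.7%), beside 57.3% over all genes. This last background was not limited to genes with like numbers of peaks.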
